A study of Mus musculus with 5 samples.

Results

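Complement, coagulation and fibrinolysis genes were followed in cortical kidney tissue of Fnip1 null and wildtype mice by RNAseq. The set holds 41 genes of the 24421 gene symbols counted: 20 genes of the complement cascade and 21 genes of blood clotting and clot removal. Members were chosen by gene symbol, for what their proteins do, but with earlier results of these data known. Mice 8637, 9210 and 9121 were Fnip1-/-, and the labels give wildtype mice 9055 and 9056 as Fnip1+/+, while the study's text also calls the controls of this experiment Fnip1+/-. All 5 mice were on the C57BL6J background, and each library came from 1 mouse. The Fnip1 null line came from random chemical (ENU) mutagenesis and lacks Fnip1 in every tissue from the germline on, so the kidney cells and the circulating leukocytes were both without it. Ages are given only as a range over the experiment and sex is not given in the labels. Fnip1 encodes a partner of Folliculin, a protein that links energy and nutrient sensing to AMPK and mTOR, and the comparison asked which transcripts of the kidney differ when it is missing.

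Complement is a chain of plasma proteases and opsonins. C1q, made largely by macrophages, starts the classical pathway with C1r and C1s, the MASP proteases start the lectin pathway, factor B and properdin drive the alternative pathway, and all of them converge on C3, whose fragments act on receptors of leukocytes. In clotting, tissue factor and factor VII lead to thrombin, which turns fibrinogen into fibrin, and thrombomodulin, protein C and tissue factor pathway inhibitor hold the reaction back, while the plasminogen activators remove the clot. The liver makes most of these proteins for plasma, and the kidney is known as a site of local C3, factor B, urokinase and tissue plasminogen activator transcription.

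Gene counts per mouse were between 15799114 and 19132145, and 3 counts corresponded to 0.158 to 0.186 CPM, that is counts scaled by TMM to the same library size, the unit of every level below. Within a genotype, log2 CPM of any pair of mice correlated at 0.974 to 0.993 across genes. Pairs from different genotypes correlated at 0.957 to 0.988, so the ranges overlapped. Fnip1 null mouse 8637 correlated at 0.988 with wildtype mouse 9055, and at 0.987 and 0.974 with Fnip1 null mice 9210 and 9121. Fnip1 transcripts themselves were at 51.7 and 48.6 CPM in wildtype mice and at 21.0, 16.9 and 16.0 CPM in Fnip1 null mice, so the labels and the reads pointed the same way. Proximal tubule markers, which define the cortex, summed to between 8151 and 13003 CPM in all 5 mice. Fnip1 null mouse 9121 had 314 CPM of Xist against at most 1.41 CPM in the other 4 mice, and 0.369 CPM of 4 Y-linked genes against at least 126.7 CPM, so it differed in sex from the rest. The adipocyte marker Adipoq was at 22.0 and 8.97 CPM in Fnip1 null mice 9210 and 9121, and at most 1.31 CPM in the other 3 mice. In whole tissue, more cells of a type and more RNA per cell cannot be told apart.

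Most of the genes were at a higher level in Fnip1 null than in wildtype kidney. Counted over all 41 genes, the mean was higher in Fnip1 null mice for 31 genes and lower for 9, and 1 gene, F11, was at 0 in every mouse. Enough reads for a test were present for 35 genes, 28 of them with a log2 fold change above 0 and 7 below. Their median log2 fold change was 0.88, whereas the median of all 13874 genes tested was 0.0031. In 22 of the 35 genes (62.9%) all 3 Fnip1 null mice lay above both wildtype mice, against a background of 22.9% of all genes, and in 4 genes all 3 lay below, against a background of 23.0%. In 19 genes the separation came with at least 1.5-fold higher levels (background 11.9%), and in 3, Cfb, Cd55 and Proc, with levels at least 1.5-fold lower (background 4.63%). Of the 35 genes, 29 had at least 10 counts in all 5 mice and none had fewer than 10 counts in both wildtype mice.

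Single genes seldom passed the strict test. By edgeR's quasi-likelihood test with both rules met (an FDR of 5% and at least 2-fold), 1 of the 35 genes was higher in Fnip1 null mice (Plat; background 0.404%) and 0 were lower (background 0.130%). At an unadjusted p below 0.05 the same test gave 24 genes (background 25.1%), of which 20 were higher (background 13.9%). The edgeR exact test, which uses the same counts with a plainer account of the spread, called 10 genes higher (C1qa, C1qb, C1qc, C3, C3ar1, Cfi, F2r, Fgb, Fgg and Plat; background 3.03%) and 1 lower (Proc; background 1.04%). DESeq2 called 9 higher (background 2.64%) and 1 lower (background 0.872%), the likelihood ratio test 10 higher (background 3.44%) and 1 lower (background 1.09%). The exact test calls leaned on single mice: leaving out wildtype mouse 9056 kept 1 of them, Plat, and C1qc and F2r kept their call when any of the other 4 mice was left out. An exact permutation test on a single gene can reach no p below 0.1 with groups of 3 and 2, so single genes are described by the value of every mouse.

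**Figure D1:**
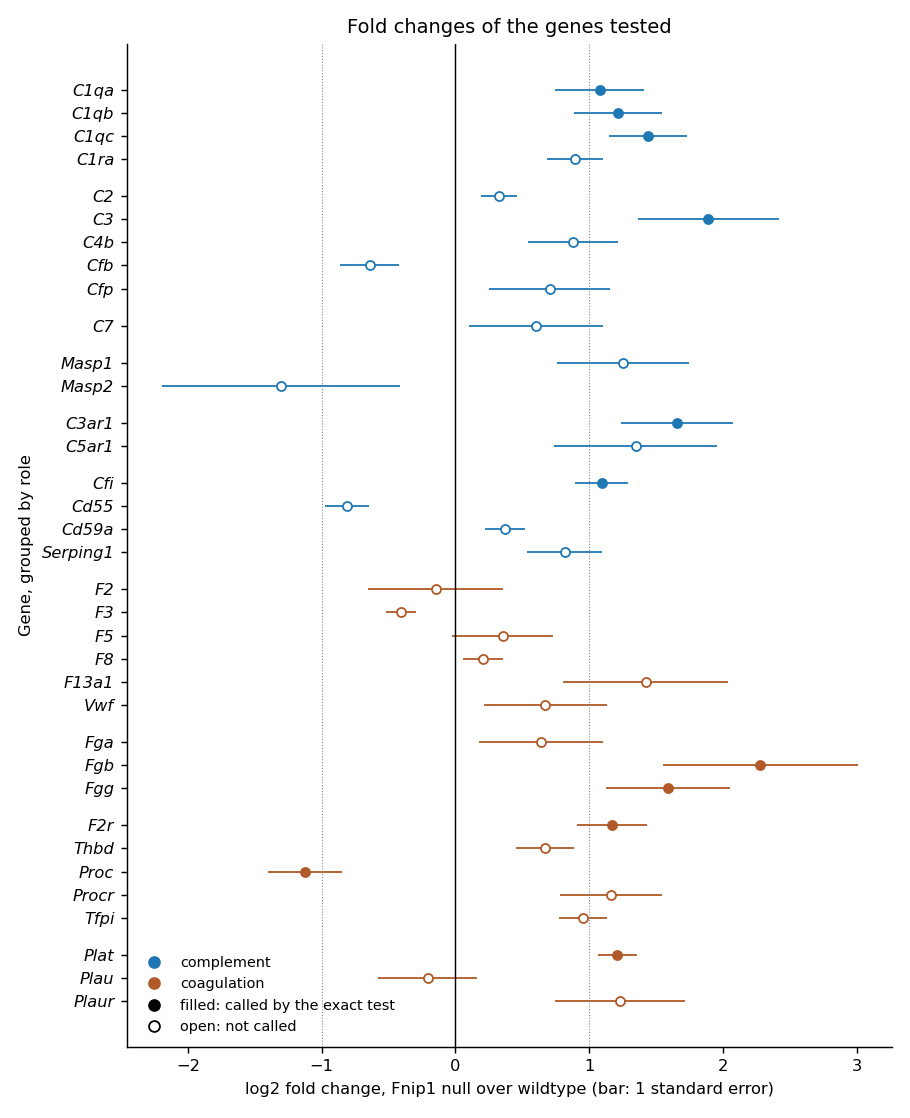
Log2 fold change, Fnip1 null minus wildtype, of the 35 genes tested, one point per gene with bars of 1 SE from the quasi-likelihood fit of 3 Fnip1 null and 2 wildtype mice. Filled points are the 11 genes called by the exact test, 28 of the 35 points lie to the positive side, and dotted lines mark a 2-fold difference.

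The C1q genes, which encode the 3 chains of the recognition molecule of the classical pathway, were higher in all 3 Fnip1 null mice. They lie side by side within 18.7 kb of chromosome 4 (GRCm38), C1qb at 136880129 to 136886187, C1qc at 136889804 to 136893065 and C1qa at 136895917 to 136898803, all on the minus strand. Upstream sequence is shown for C1qc and C1qb, because the 3 genes lie together, share the macrophage as their usual source and were separate between the genotypes. The lines give chr4:136893066-136893164 (99 bases, from 250 to 152 before the RefSeq start of C1qc) and chr4:136886201-136886450 (250 bases before the start of C1qb), minus strand, 5′ to 3′, with capitals for GAGGAA or its reverse complement, the core bound by the myeloid factor PU.1.
C1qc: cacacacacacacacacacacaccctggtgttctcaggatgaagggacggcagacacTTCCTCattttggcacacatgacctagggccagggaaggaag
C1qb: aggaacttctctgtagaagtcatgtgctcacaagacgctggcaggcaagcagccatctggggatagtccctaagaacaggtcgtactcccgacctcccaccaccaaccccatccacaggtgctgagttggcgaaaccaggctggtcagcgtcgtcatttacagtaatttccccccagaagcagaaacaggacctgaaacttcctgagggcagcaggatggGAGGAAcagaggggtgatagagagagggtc
GAGGAA was 193 to 188 bases before the C1qc start, on the opposite strand, and 30 to 25 bases before the C1qb start. The same 6 letters, searched on both strands, were present in 23.1% of the 27025 RefSeq promoters of this length and in 7 of the 27 complement and coagulation genes that had one.

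C1qa was at 12.2 and 9.49 CPM in wildtype mice 9055 and 9056, and at 16.0, 19.4 and 33.0 CPM in Fnip1 null mice 8637, 9210 and 9121, the order kept below. C1qb was at 10.9 and 9.60 CPM in wildtype mice and at 15.5, 21.7 and 34.0 CPM in Fnip1 null mice. C1qc was at 8.63 and 7.03 CPM against 16.0, 18.4 and 29.3 CPM. All 3 chains were highest in mouse 9121 and no Fnip1 null value reached down to a wildtype value. The fold change was 2.11 for C1qa (log2 1.08, SE 0.33; adjusted p = 0.127 in edgeR's quasi-likelihood test and 0.0323 in its exact test), 2.32 for C1qb (log2 1.22, SE 0.33; 0.108 and 0.0129) and 2.71 for C1qc (log2 1.44, SE 0.29; 0.0747 and 0.000518). Without mouse 9121 the log2 fold changes were 0.71, 0.87 and 1.14, and C1qc kept its exact test call while C1qa and C1qb did not. With mouse 8637 as the only Fnip1 null mouse they were 0.57, 0.61 and 1.03. C1ra, the protease that C1q activates, was at 10.2 and 7.66 CPM in wildtype mice and at 13.7, 16.8 and 19.4 CPM in Fnip1 null mice, 1.86-fold higher without passing the 2-fold rule.

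Most macrophage and dendritic cell markers were higher in Fnip1 null mice, as C1q was. Of the 12 markers of these cells, 11 were tested and 10 had a log2 fold change above 0 (median 1.42). In 9 all Fnip1 null mice lay above both wildtype mice (background 22.9%). Csf1r, by contrast, was lower in all 3 Fnip1 null mice (72.3 and 68.4 CPM against 38.2, 36.4 and 63.8 CPM). The whole list summed to 119 and 97.1 CPM in wildtype mice and to 97.7, 127 and 205 CPM in Fnip1 null mice. Csf1r took the larger share of the wildtype sum, and without it the list summed to 46.4 and 28.7 CPM against 59.5, 90.1 and 141 CPM. The summed C1q level was 31.7 and 26.1 CPM against 47.5, 59.6 and 96.3 CPM. Divided by the markers without Csf1r, C1q was 0.682 and 0.910 in wildtype mice and 0.799, 0.661 and 0.681 in Fnip1 null mice, so on this ratio the genotypes overlapped. That overlap depended on leaving out Csf1r: divided by the whole list, C1q was 0.267 and 0.269 against 0.486, 0.471 and 0.469, and the genotypes were separate. The part of these cells in the C1q levels was not tested.

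**Figure D2:**
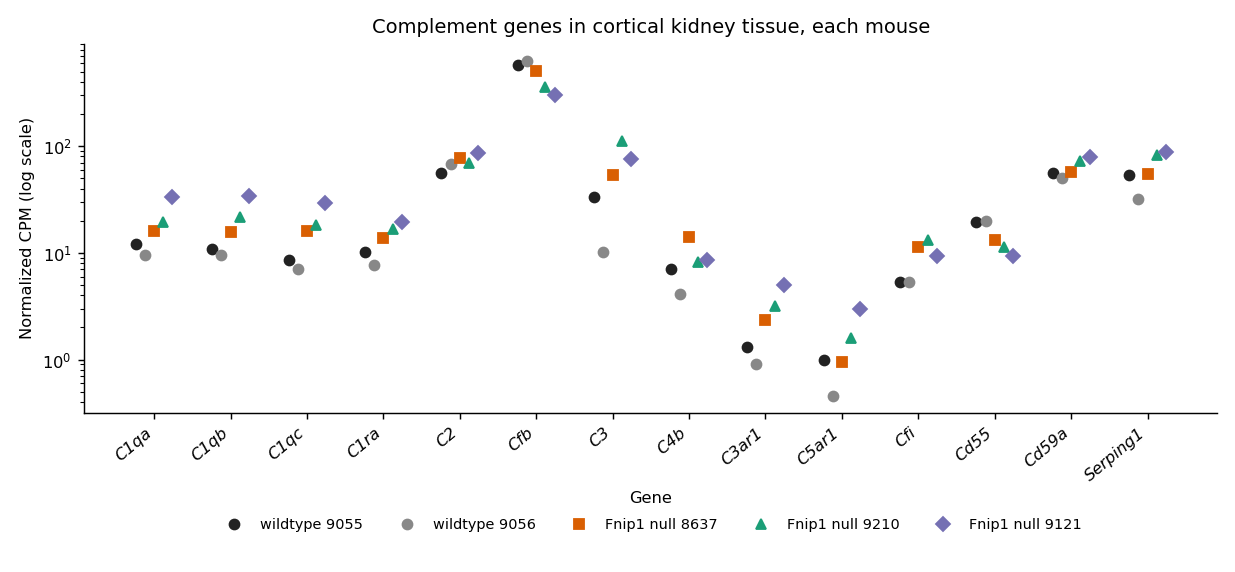
Level of selected complement genes in each mouse, in TMM-normalized CPM on a log axis, with wildtype and Fnip1 null mice as separate points. The C1q genes, C3 and Cfi have all 3 Fnip1 null mice above both wildtype mice, and Cfb and Cd55 have all 3 below.

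C3, the protein on which the pathways meet, had the largest fold change of the complement genes tested and also one of the widest spreads. It was at 33.2 and 10.3 CPM in wildtype mice and at 53.5, 111 and 76.4 CPM in Fnip1 null mice, on chromosome 17 from 57203970 to 57228136. The wildtype mice were themselves more than 3-fold apart, yet the lowest Fnip1 null mouse was above the higher wildtype mouse. The 3.71-fold difference (log2 1.89, SE 0.53) had an adjusted p of 0.111 in edgeR's quasi-likelihood test, 0.0126 in its exact test and 0.0531 in DESeq2. Without any 1 mouse the log2 fold change was between 1.27 and 2.96, and with mouse 8637 as the only Fnip1 null mouse it was 1.31. C3ar1, the receptor for the C3a fragment on myeloid cells, was at 1.30 and 0.915 CPM in wildtype mice and at 2.36, 3.15 and 4.96 CPM in Fnip1 null mice, 3.15-fold higher (adjusted p = 0.102 in edgeR's quasi-likelihood test and 0.0113 in its exact test) and a log2 of 1.09 higher in mouse 8637 alone. C5ar1, the receptor for C5a, was low and overlapped between the genotypes, with 0.993 and 0.457 CPM in wildtype mice and 0.942, 1.60 and 2.95 CPM in Fnip1 null mice (log2 1.35, and 0.39 in mouse 8637 alone). Both receptors were highest in mouse 9121, the mouse with the most macrophage transcripts.

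Factor B was lower in all 3 Fnip1 null mice. Cfb, the protease of the alternative pathway convertase, was at 576 and 632 CPM in wildtype mice and at 503, 357 and 303 CPM in Fnip1 null mice, a fold change of 0.642 (log2 -0.64, SE 0.22; adjusted p = 0.149 in edgeR's quasi-likelihood test, 0.0864 in its exact test and 0.0484 in DESeq2). It did not pass the 2-fold rule in any test, and with mouse 8637 as the only Fnip1 null mouse the log2 fold change was -0.26 (adjusted p = 0.434 in edgeR's quasi-likelihood test). C2, the classical pathway counterpart of factor B, is the neighbour of Cfb on chromosome 17 and had means of 77.7 ± 8.62 CPM (SD, n = 3) in Fnip1 null and 62.1 ± 8.33 CPM (SD, n = 2) in wildtype mice (log2 0.32, SE 0.13), with mouse 9210 at 69.0 next to wildtype mouse 9056 at 68.0 CPM. C4b was at 7.02 and 4.12 CPM in wildtype mice and at 14.0, 8.26 and 8.50 CPM in Fnip1 null mice, 1.84-fold higher (adjusted p = 0.177 in edgeR's quasi-likelihood test), with a log2 of 0.88 that was 1.33 in mouse 8637 alone. C4a, its near-identical copy within the same 169.9 kb, had 6 and 19 counts in wildtype and 4, 0 and 0 counts in Fnip1 null mice and was not tested. Reads that fit both copies are left out of unique counts, so C4a and C4b are uncertain. Cfp, which encodes properdin, overlapped between the genotypes (log2 0.70, SE 0.45), and with mouse 8637 as the only Fnip1 null mouse the value was a log2 of -0.045.

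The regulators that stop complement on host cells were split. Cfi, the protease that cuts C3b and C4b, was at 5.28 and 5.32 CPM in wildtype mice and at 11.4, 13.2 and 9.34 CPM in Fnip1 null mice. This 2.13-fold difference was large beside the spread (log2 1.09, SE 0.20; adjusted p = 0.0661 in edgeR's quasi-likelihood test and 0.000732 in its exact test). Serping1, the inhibitor of C1r and C1s, was at 53.3 and 32.0 CPM in wildtype and at 54.5, 82.7 and 88.2 CPM in Fnip1 null mice, with mouse 8637 barely above wildtype mouse 9055. Its log2 fold change was 0.82 (SE 0.28), and 0.36 with mouse 8637 as the only Fnip1 null mouse. Cd55, which takes C3 convertases apart on the cell surface, was at 19.6 and 20.1 CPM in wildtype mice and at 13.2, 11.3 and 9.39 CPM in Fnip1 null mice. Its fold change of 0.571 (log2 -0.81, SE 0.17) had an adjusted p of 0.0747 in edgeR's quasi-likelihood test and 0.00327 in its exact test, short of 2-fold. Cd59a, the surface inhibitor of the membrane attack complex, had means of 69.3 ± 10.96 CPM (SD, n = 3) and 53.5 ± 3.97 CPM (SD, n = 2) in Fnip1 null and wildtype mice (log2 0.37, SE 0.15, and 0.099 in mouse 8637 alone; adjusted p = 0.189 in edgeR's quasi-likelihood test).

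The remaining complement genes were expressed at a few CPM or less. Masp1, a lectin pathway protease, was at 0.931 and 0.286 CPM in wildtype mice and at 1.53, 1.37 and 1.42 CPM in Fnip1 null mice, 2.38-fold higher with an SE of 0.49 on the log2 scale. Masp2, the main C4-cleaving protease of that pathway, was at 2.42 and 2.17 CPM in wildtype mice and 2.30 CPM in Fnip1 null mouse 8637, but at 0.356 and 0.158 CPM in mice 9210 and 9121. Its log2 fold change of -1.30 became -3.15 without mouse 8637 (adjusted p = 0.0118 in edgeR's quasi-likelihood test) and 0.0056 without the other Fnip1 null mice. The exons of Masp2 share 1817 bases with Tardbp on the opposite strand, and whether the counting used strand is not given in the sources used here, so the gene is uncertain. C7 of the terminal pathway overlapped between the genotypes (log2 0.60, SE 0.50, and 0.94 in mouse 8637 alone), and C6 had at most 11 counts in any mouse and was not tested.

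The 3 fibrinogen chains, which form the substrate of thrombin, were all highest in Fnip1 null mouse 8637. Their genes span 42.1 kb of chromosome 3 (GRCm38), Fgg at 83007724 to 83015049 and Fga at 83026076 to 83033627 on the plus strand, and Fgb at 83040141 to 83049863 on the minus strand. The bases before the starts are shown because Fgb and Fgg separated the genotypes while Fga, between them, did not. The lines give chr3:83049864-83050113 for Fgb, chr3:83025903-83026075 for Fga (173 bases, from 250 to 78 before its RefSeq start) and chr3:83007474-83007723 for Fgg, each on its gene's strand, 5′ to 3′. Capitals mark GAGGAA as above, as well as CTGGGAA (the motif of the interleukin-6 response of acute phase genes) and TGANTCA (the AP-1 motif).
Fgb: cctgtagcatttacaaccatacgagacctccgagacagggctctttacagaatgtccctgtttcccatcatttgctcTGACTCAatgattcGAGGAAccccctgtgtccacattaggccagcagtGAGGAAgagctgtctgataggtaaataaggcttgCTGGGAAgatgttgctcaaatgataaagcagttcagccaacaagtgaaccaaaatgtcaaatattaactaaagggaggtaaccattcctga
Fga: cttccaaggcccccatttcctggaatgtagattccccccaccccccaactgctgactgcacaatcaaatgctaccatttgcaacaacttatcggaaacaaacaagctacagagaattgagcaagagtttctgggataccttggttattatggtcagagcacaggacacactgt
Fgg: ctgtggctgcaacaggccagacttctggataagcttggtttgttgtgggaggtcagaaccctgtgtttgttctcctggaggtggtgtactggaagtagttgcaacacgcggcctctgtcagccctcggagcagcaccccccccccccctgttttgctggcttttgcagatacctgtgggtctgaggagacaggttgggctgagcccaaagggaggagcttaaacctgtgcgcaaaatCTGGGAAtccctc
CTGGGAA was 91 to 85 bases before the Fgb start and 13 to 7 bases before the Fgg start, and the 173 bases of Fga held none of the 3 motifs. Fgb also had GAGGAA at 159 to 154 and 125 to 120 bases, and TGACTCA at 173 to 167 bases before its start. On both strands, CTGGGAA was present in 9.08% and TGANTCA in 6.87% of all promoters, and in 6 and 7 of the 27 complement and coagulation genes with one. These matches describe letters in the reference and say nothing of what bound them in these kidneys.

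Fgb was at 0.621 and 0.457 CPM in wildtype mice and at 4.95, 1.25 and 1.74 CPM in Fnip1 null mice, 4.86-fold higher (log2 2.28, SE 0.73; adjusted p = 0.134 in edgeR's quasi-likelihood test and 0.0364 in its exact test). Fgg was at 5.84 and 6.29 CPM in wildtype mice and at 30.1, 14.3 and 10.5 CPM in Fnip1 null mice, 3.01-fold higher (log2 1.59, SE 0.46; adjusted p = 0.118 in edgeR's quasi-likelihood test and 0.0166 in its exact test). Fga, the highest of the 3 per kilobase of exon in every mouse, was at 18.8 and 18.0 CPM in wildtype mice and at 49.1, 21.0 and 16.1 CPM in Fnip1 null mice, so the genotypes overlapped. Without mouse 8637 the log2 fold changes were 1.47 for Fgb, 1.03 for Fgg and 0.01 for Fga, the last of which is a difference that 1 mouse carried. The defining hepatocyte transcripts Ahsg and Cps1 were at most 0.0621 CPM in any mouse, and Alb was at 8.88 and 10.4 CPM in wildtype and at 12.6, 10.04 and 16.0 CPM in Fnip1 null mice. The hepatocyte list as a whole had 3 of 8 tested markers positive and summed to 181 and 204 CPM in wildtype mice and to 101, 99.8 and 66.5 CPM in Fnip1 null mice. That sum was mostly Ttr and Serpina1a, with log2 fold changes of -1.64 and -0.67. Apoh, Serpina1c and Apoa1 were negative too (-2.64, -0.98 and -0.72), while Alb, Apoa2 and Hp had log2 fold changes of 0.42, 0.38 and 1.20. Fibrinogen summed to 25.3 and 24.7 CPM against 84.2, 36.5 and 28.4 CPM, and the part of liver transcripts in it was not tested.

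Of the procoagulant factors, none was differentially expressed by any of the 4 tests. F3, tissue factor, the cellular trigger of clotting, was lower in all 3 Fnip1 null mice, with 18.0 ± 0.852 CPM (SD, n = 3) against 23.8 ± 1.64 CPM (SD, n = 2), but the difference was small (log2 -0.41, SE 0.11; adjusted p = 0.108 in edgeR's quasi-likelihood test). F13a1, the subunit that crosslinks fibrin and is known in macrophages and platelets, was at 0.931 and 0.171 CPM in wildtype mice and at 1.41, 1.78 and 1.21 CPM in Fnip1 null mice. The wildtype mice were so far apart that its log2 fold change was 1.42 with an SE of 0.62. F5, F2 (prothrombin) and Vwf overlapped between the genotypes, with log2 fold changes of 0.35, -0.15 and 0.67 (0.98, -1.14 and 0.15 with mouse 8637 as the only Fnip1 null mouse), and F8 differed by a log2 of 0.21 (SE 0.15). With all mice, F7, F10 and F11 had too few counts to be tested. F10 had 1 and 7 counts in wildtype and 6, 16 and 17 counts in Fnip1 null mice. Without mouse 8637 it passed the filter only through mice 9210 and 9121, so the direction of its exact test call there was fixed by the filter.

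**Figure D3:**
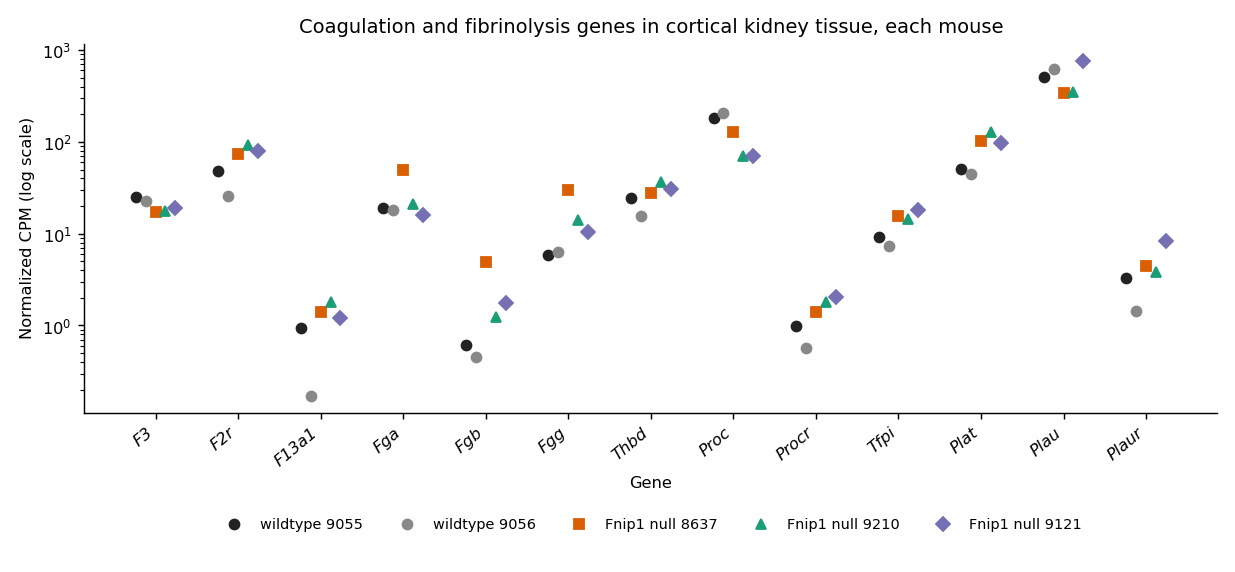
Level of selected coagulation and fibrinolysis genes in each mouse, in TMM-normalized CPM on a log axis, with wildtype and Fnip1 null mice as separate points. Plat, F2r, Tfpi and Fgg have all 3 Fnip1 null mice above both wildtype mice, Proc has all 3 below, and for Fgb and Fgg mouse 8637 is the highest.

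Of the 5 genes for the thrombin receptor and the anticoagulant proteins, all Fnip1 null mice lay above both wildtype mice in 4 (background 22.9%). In Proc all lay below both (background 23.0%). The exact test called F2r higher (background 3.03%) and Proc lower (background 1.04%). F2r, the thrombin receptor PAR1, was at 47.6 and 25.7 CPM in wildtype mice and at 74.0, 93.6 and 80.1 CPM in Fnip1 null mice. It was 2.26-fold higher (log2 1.17, SE 0.26; adjusted p = 0.0837 in edgeR's quasi-likelihood test and 0.00181 in its exact test). Tfpi, the inhibitor of the tissue factor complex, was at 9.31 and 7.26 CPM in wildtype mice and at 15.7, 14.3 and 18.1 CPM in Fnip1 null mice, 1.94-fold higher with an exact test adjusted p of 0.00105 and just under the 2-fold rule. Thbd, thrombomodulin, was at 24.3 and 15.5 CPM in wildtype mice and at 27.7, 36.5 and 30.8 CPM in Fnip1 null mice. Procr, the endothelial protein C receptor, was at 0.993 and 0.572 CPM against 1.41, 1.78 and 2.06 CPM. In all 4 genes the genotypes were separate, and wildtype mouse 9055 lay closer to the Fnip1 null mice than mouse 9056 did.

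Proc, protein C, the plasma protease that thrombomodulin switches on, was at 183 and 205 CPM in wildtype mice and at 128, 69.7 and 69.8 CPM in Fnip1 null mice. This was a fold change of 0.46 (log2 -1.12, SE 0.28; adjusted p = 0.0975 in edgeR's quasi-likelihood test and 0.00493 in its exact test), and the difference was smaller in mouse 8637 alone (log2 -0.59). Its exact test call was lost on leaving out any 1 mouse other than 8637. So the receptors for the protein C pathway and protein C itself were on opposite sides of wildtype. Proximal tubule markers summed to 11830 and 13003 CPM in wildtype mice and to 11062, 9027 and 8151 CPM in Fnip1 null mice. In 4 of the 7 all Fnip1 null mice lay below both wildtype mice (background 23.0%). In 2 others, Slc5a2 and Slc5a12, all lay above both (background 22.9%). The part of the proximal tubule in the level of Proc was not tested.

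Markers of vessels and stroma are given beside these genes. All 10 endothelial markers had a log2 fold change above 0 (median 0.60). In 5 of them every Fnip1 null mouse was above the wildtype mice (background 22.9%). None was called by the exact test (0 of 10). They summed to 595 and 372 CPM in wildtype mice and to 616, 699 and 819 CPM in Fnip1 null mice. Fibroblast and pericyte markers, another source of C3, Serping1 and F2r, summed to 272 and 146 CPM against 286, 523 and 443 CPM, with 7 of 7 positive (median log2 fold change 1.01). In both lists wildtype mouse 9055 was the higher of the wildtype mice. Neutrophil markers were low, with Camp, Mpo and Elane at 0 in all mice. They summed to 2.30 and 1.77 CPM in wildtype mice and to 7.95, 9.92 and 11.2 CPM in Fnip1 null mice. Of the 4 that were tested, S100a8 and S100a9 had at most 5 counts in a wildtype mouse. They passed the filter only through the Fnip1 null mice, so their direction was fixed by the filter. Csf3r was at 0.621 and 0.743 CPM in wildtype and at 1.83, 2.32 and 3.22 CPM in Fnip1 null mice (exact test adjusted p = 0.00287). Cxcr2 overlapped between the genotypes. Platelet markers summed to between 7.18 and 9.87 CPM in all mice, mostly Itga2b, which was lower in every Fnip1 null mouse. Pf4, too low to be tested, went the other way, with 0.310 and 0.171 CPM in wildtype and 0.471, 0.891 and 1.27 CPM in Fnip1 null mice. The part of these cell types in the coagulation genes was not tested.

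**Figure D4:**
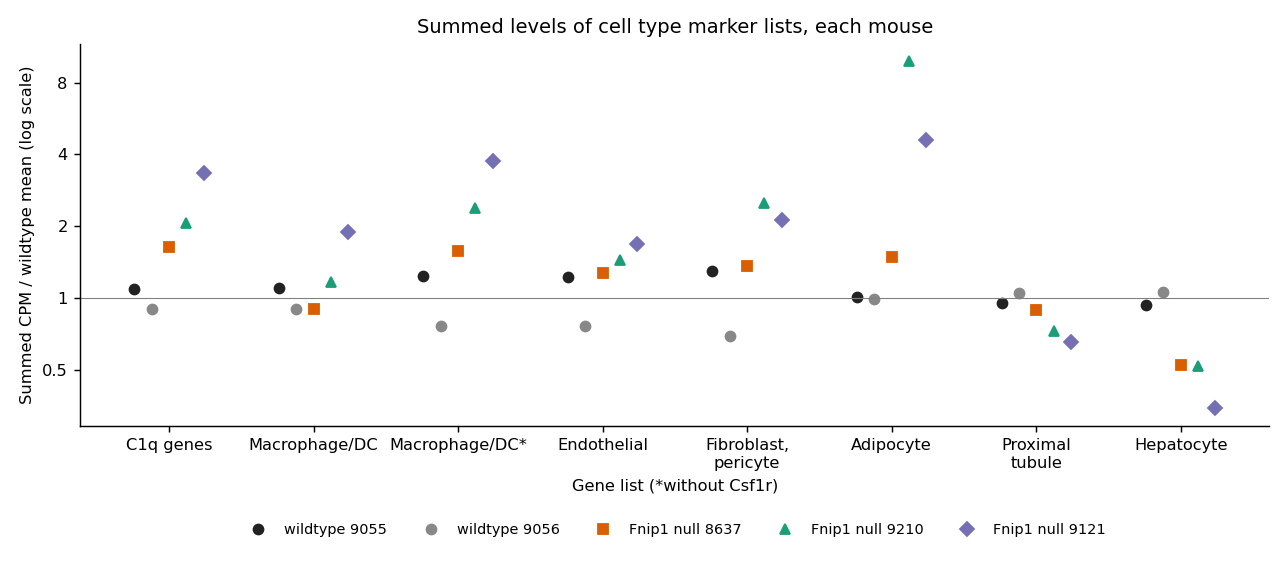
Summed CPM of the C1q genes and of cell type marker lists in each mouse divided by the wildtype mean, on a log axis, the macrophage and dendritic cell (DC) list whole and without Csf1r (*). C1q is higher in all 3 Fnip1 null mice, the whole macrophage list overlaps between the genotypes and is separate without Csf1r, adipocyte markers are highest in mice 9210 and 9121, and hepatocyte markers are lower in all 3.

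The plasminogen system gave the only gene to pass the strict test. Plat, tissue plasminogen activator (chromosome 8, 22757727 to 22782844, plus strand), was at 50.4 and 44.5 CPM in wildtype mice and at 103, 128 and 98.1 CPM in Fnip1 null mice. The wildtype mice were close together and every Fnip1 null mouse was well above them. The means were 109.7 ± 16.3 CPM (SD, n = 3) and 47.4 ± 4.20 CPM (SD, n = 2), a 2.31-fold increase (log2 1.21, SE 0.15; adjusted p = 0.039 in edgeR's quasi-likelihood test, 2.66e-08 in its exact test and 2.6e-09 in DESeq2). The log2 fold change was between 1.08 and 1.30 on leaving out any 1 mouse and 1.12 with mouse 8637 as the only Fnip1 null mouse. The quasi-likelihood call was lost without mouse 9210 (adjusted p = 0.121) and without either wildtype mouse (up to 0.515), and the exact test kept it each time.

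Plau, urokinase, the plasminogen activator of the tubule, was by contrast at 506 and 616 CPM in wildtype mice and at 342 and 351 CPM in Fnip1 null mice 8637 and 9210, but at 765 CPM in mouse 9121. With all mice its log2 fold change was -0.21 (SE 0.37), and without mouse 9121, which differed in sex from the others, it was -0.70 (adjusted p = 0.0768 in edgeR's quasi-likelihood test). Plaur, the urokinase receptor of myeloid and injured epithelial cells, was at 3.29 and 1.43 CPM in wildtype mice and at 4.42, 3.86 and 8.23 CPM in Fnip1 null mice, 2.35-fold higher (adjusted p = 0.186 in edgeR's quasi-likelihood test). Plasminogen itself, Plg, had 15 and 9 counts in wildtype and 4, 1 and 0 counts in Fnip1 null mice and was not tested.

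Compared per kilobase of exon, the kidney transcribed these genes very unequally. In wildtype mice the highest levels were those of Plau, Cfb and Proc, with means of 237, 214 and 78.3 CPM per kb, and then Cd59a (29.5), Serping1 (18.3) and C2 (16.0). Plau at 214 and 260 and Cfb at 204 and 224 CPM per kb in the single wildtype mice were not apart beyond their spread, whereas Proc at 73.8 and 82.8 CPM per kb was below both. The genes that the exact test called higher stood lower in this order, from F2r at 10.98 and C1qa at 10.4 CPM per kb to Fgb at 0.142. In Fnip1 null mice the means were 205 CPM per kb for Plau, 137 for Cfb and 36.0 for Proc. F2r was at 24.8, C1qa at 22.0, Plat at 17.6 and C3 at 15.6 CPM per kb.

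The 3 Fnip1 null mice did not carry the pattern alike. The log2 ratio to the wildtype mean (with 0.5 CPM added) was summarised by its median over the 35 genes. That was 0.58 in mouse 8637, then 0.752 in 9210 and 0.763 in 9121, where all genes together gave -0.00395 to 0.00119. Mouse 8637 was above both wildtype mice in 25 genes, and mice 9210 and 9121 in 26 each. The same count per mouse was not made over all genes, so these numbers stand without a background. Mouse 9121 had the highest of the Fnip1 null values in 18 genes (34% of all genes), the C1q genes and C3ar1 among them. Mouse 8637 had it in 11 (38.7% of all genes), all fibrinogen chains included, and mouse 9210 in 6 (27.3% of all genes). The wildtype mice were not alike either. Mouse 9055 was above mouse 9056 in 27 of the 35 genes (77.1%), against 48.6% of all genes, with a median log2 difference of 0.336. Most of these genes were thus higher in 1 of the wildtype mice, as most were in Fnip1 null mice. They were largely the same genes: of those with a log2 fold change above 0, all but C2, Cfi and Fgg were also higher in mouse 9055. Of those below 0, Cfb, Cd55, F2, Plau and Proc were lower in mouse 9055, while Masp2 and F3 were higher. The reason was not tested. Without mouse 9056 the median log2 fold change was 0.622 and without mouse 9055 it was 1.23.

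Other genes of the same pathways were read from a separate list. Of 68 further complement, coagulation and fibrinolysis symbols, 66 were in the files and 44 could be tested. Log2 fold changes were above 0 in 27 and below in 17, with a median of 0.26. The quasi-likelihood test of edgeR called 0, and 13 had an unadjusted p below 0.05 (background 25.1%), 10 of them higher. The exact test called 4 higher (background 3.03%) and 0 lower, and DESeq2 called 5 higher (background 2.64%). All Fnip1 null mice lay above both wildtype mice in 14 (31.8%, background 22.9%) and below in 11 (25%, background 23.0%). Pros1, protein S, the cofactor of protein C, was at 23.7 and 17.1 CPM in wildtype mice and at 38.3, 55.5 and 47.2 CPM in Fnip1 null mice (log2 1.20, SE 0.21; exact test adjusted p = 6.75e-05). C1s1, the partner of C1r, was at 19.8 and 11.4 CPM against 24.6, 35.4 and 35.1 CPM (log2 1.02, SE 0.27; exact test adjusted p = 0.0142).

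The others that the exact test called were complement receptor subunits of leukocytes and belong to the macrophage markers too. Itgam, a chain of complement receptor 3, was at 1.49 and 1.03 CPM in wildtype and at 2.89, 2.79 and 4.43 CPM in Fnip1 null mice (exact test adjusted p = 0.013). Itgax, a chain of complement receptor 4, was at 2.11 and 1.49 CPM against 4.83, 5.05 and 5.75 CPM (exact test adjusted p = 0.000119). Cfd, factor D, which activates factor B and is made by fat cells, was at 2.48 and 6.46 CPM in wildtype mice and at 3.53, 151 and 49.8 CPM in Fnip1 null mice. It was picked out after its values were seen, and its high values were in the mice with the adipocyte transcripts.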

How the data were processed

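RNAseq was performed on flash frozen cortical kidney tissue of 3 Fnip1 null and 2 wildtype mice, with 1 library per mouse. The paper describes more wildtype mice than the 2 analysed here. The authors filtered reads for quality, aligned the paired reads to mm10 with TopHat2 2.1.0 and used HTSeq 0.6.1 to count fragments per gene symbol, per the labels and the methods, and the deposited values are raw counts. The labels name bcl2fastq 1.8.2 for the base calls and the methods another version. The annotation and the strand setting of the counting are not given in the sources used here. Rows that name no gene were left out: not uniquely aligned (28.3 to 31.4% of fragments), no feature (9.91 to 10.8%) and ambiguous (0.741 to 0.803%). HTSeq drops such reads, so near-identical copies and overlapping genes are undercounted.

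The software was edgeR 4.0.16 and limma 3.58.1 under R 4.3.3. Genes with under 10 counts in more than 2 of the 5 mice were dropped, leaving 13874 of 24421 genes (17850 had at least 1 count). Libraries were scaled by TMM (factors 0.914 to 1.09) and compared by the quasi-likelihood test with Benjamini-Hochberg adjustment over all genes tested. Differential expression was an FDR of 5% and at least 2-fold. Given errors are SD, or the SE of a log2 fold change derived from its F statistic. Alternatives were the likelihood ratio and exact tests of edgeR, DESeq2 1.42.0, other scalings and filters, and leaving out each mouse. A newer quasi-likelihood method and leaving out mice 9210 and 9121 together were added after seeing the data. No 2 libraries of a genotype agreed within sampling noise. Whether the mice were litter mates is not stated, and p-values measure the spread between these mice.

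Members and lists were chosen with earlier results of these data known. The value of every mouse is given for genes passing in the quasi-likelihood or exact test, or at least 1.5-fold apart with the genotypes separate, and of the other pathway genes those passing either of these tests are named. Coordinates are GENCODE M21 (GRCm38) by symbol. Promoter sequences are RefSeq's (GRCm38.p6), listed for 27 of the 41 genes, with bases inside the GENCODE gene left out.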

Additional observations from a re-analysis of the deposited data

How the results depend on the processing

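Over 15 alternatives each, 31 of the 35 genes tested kept the sign of their log2 fold change and 4 did not in all. F2 was 0.033 with library size only and -0.47 to 0.27 with 1 mouse left out, F5 was -0.095 to 0.59 with 1 mouse left out, and without both mice with adipocyte transcripts Cfp was -0.045 and Masp2 0.0056. Scaling by library size alone moved the median of all genes by 0.163, and no other gene changed direction under it. The members' median of 0.88 was 0.622 to 1.23 with 1 mouse left out and 0.615 without both mice with adipocyte transcripts. Members called higher by the quasi-likelihood test (1 in all mice) were 0 to 11 with 1 Fnip1 null mouse left out. Over the same settings 0 to 660 of all genes were called higher, against 56 in all mice. Both counts were highest without mouse 8637. With all mice, members called higher were 10 by the exact test, 10 by the likelihood ratio test and 9 by DESeq2. Members called lower (0) were 0 to 2 with 1 Fnip1 null mouse left out, where 0 to 288 of all genes were. They were 1 by each of the other 3 tests. By the exact test, members called higher were 6 to 15 and lower 0 to 2 with 1 Fnip1 null mouse left out. The 15, without mouse 8637, include F10, which passed the filter there only through Fnip1 null mice. How many of all genes the exact test called in these settings was not counted. Other pathway genes called higher (0) were 4 by the exact test, 6 by the likelihood ratio test and 5 by DESeq2. With no filter on low counts they were 2, where 108 of all genes were. With 1 Fnip1 null mouse left out, 0 to 7 were called higher and 0 to 2 lower, against 0 to 660 and 0 to 288 of all genes. Over all genes, the exact test called 421 higher and 144 lower where the quasi-likelihood test called 56 and 18. The cause of these differences was not tested. A setting with 1 mouse left in a genotype takes its spread from the other. No paired analysis was possible because the 2 genotypes share no replicate numbers. Genes with under 3 counts in a mouse could not be told from absent at this depth.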
